A study of Mus musculus with 18 samples.

Results

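The transcripts examined here were those of 34 genes that mark leukocytes or serve class II antigen presentation, found by their gene name among the 52636 genes listed for every library, and all 34 were present. They comprised 7 pan-leukocyte genes (Ptprc, Coro1a, Laptm5, Cd52, Cd53, Rac2 and Lcp1), 7 genes of the class II pathway (Cd74, H2-Aa, H2-Ab1, H2-Eb1, H2-DMa, H2-DMb1 and Ciita), 10 genes of T cells and intraepithelial lymphocytes (Cd3d, Cd3e, Cd3g, Cd8a, Cd8b1, Gzma, Gzmb, Itgae, Il7r and Ccr9), 7 genes of macrophages and other myeloid cells (C1qa, C1qb, C1qc, Tyrobp, Fcer1g, Csf1r and Lyz2) and 3 genes of B and plasma cells (Jchain, Cd79a and Cd79b). Together they were read as the immune-cell share of 18 RNA-seq libraries from mouse colon, made to compare animals with and without the olfactory receptor Olfr78. Colon crypts came from 2 wild-type (WT) mice, from 5 Olfr78 KO mice, in which GFP and tauLacZ replace the coding exon of both Olfr78 alleles in every cell, from 3 eControl mice and from 2 eKO mice. In the line of the last 5 mice, Cre driven by the villin promoter (Vil1-Cre) removes a floxed Olfr78 exon in epithelial cells of eKO mice. Their other cell types keep the gene. According to the study, controls of this line had either floxed alleles without Cre or Cre without floxed alleles. Sorted epithelial cells came as Epcam+/GFP- cells, 2 samples of 1 WT mouse, and as Epcam+/GFP+ pools from heterozygous (HE) and homozygous (KO) Olfr78-GFP mice, 2 pools of 2 mice for each genotype, from animals of 4 to 7 months. The ages of the crypt donors are not given in the sources used here.

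Class II molecules present peptides from engulfed material to helper T cells. Their α and β chains (H2-Aa with H2-Ab1; H2-Eb1 is a β chain) assemble around the invariant chain Cd74, the H2-DM chaperone exchanges its remnant for peptide, and Ciita is the coactivator that switches the pathway on. Dendritic cells, macrophages and B cells carry it constantly, and gut epithelial cells can acquire it under interferon gamma. The colon epithelium also houses intraepithelial lymphocytes, T cells held between epithelial cells by the integrin that Itgae encodes, whereas macrophages, B cells and plasma cells lie mostly in the lamina propria beneath the crypts. Isolated crypts, which the submitters label as all epithelium, can therefore carry RNA of both kinds of neighbour.

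On the GRCm38 assembly, several members lie in clusters. H2-DMa (chr17:34119541-34139101), H2-DMb1 (chr17:34153072-34160230), H2-Ab1 (chr17:34257689-34269419), H2-Aa (chr17:34282744-34287823) and H2-Eb1 (chr17:34305867-34316674) sit in the major histocompatibility complex on chromosome 17. The 3 genes of the C1q complement subcomponent follow each other on chromosome 4 (C1qb from 136880129, C1qc from 136889804 and C1qa from 136895917), and the CD3 chains Cd3g, Cd3d and Cd3e on chromosome 9. RefSeq windows of 300 bases, from 250 bases before to 50 after the transcription start on GRCm38.p6, were at hand for 23 of the 34 members. Of the 7 class II members 4 had a window, and those of H2-Aa, H2-Eb1 and H2-DMb1 are shown, a choice made on their letters. The windows of H2-Eb1 and H2-DMb1 held the X and Y box arrangement for which class II promoters are textbook examples. That of H2-Aa held a Y box core and a cAMP response element, without an exact match to the X box pattern. AAC stood 2 bases before the TGACG of that element, where the pattern asks for 3. Whether H2-Aa holds an X box was not decided by this search. H2-DMa had 2 windows, of which 1 held a Y box core, and neither held an X box pattern or a cAMP response element. Capitals mark letters found by a search of both strands for the Y box core GATTGG, for an X box pattern (AAC, any 3 bases, then TGANG, with N for any base) and for the cAMP response element TGACGTCA.
H2-Aa promoter, chr17:34287774-34288073, strand -: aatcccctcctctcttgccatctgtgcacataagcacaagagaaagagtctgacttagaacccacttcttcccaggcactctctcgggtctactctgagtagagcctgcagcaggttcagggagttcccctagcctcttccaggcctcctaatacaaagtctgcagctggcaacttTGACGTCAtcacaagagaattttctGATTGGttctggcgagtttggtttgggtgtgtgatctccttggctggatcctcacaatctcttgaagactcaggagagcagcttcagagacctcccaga
H2-Eb1 promoter, chr17:34305617-34305916, strand +: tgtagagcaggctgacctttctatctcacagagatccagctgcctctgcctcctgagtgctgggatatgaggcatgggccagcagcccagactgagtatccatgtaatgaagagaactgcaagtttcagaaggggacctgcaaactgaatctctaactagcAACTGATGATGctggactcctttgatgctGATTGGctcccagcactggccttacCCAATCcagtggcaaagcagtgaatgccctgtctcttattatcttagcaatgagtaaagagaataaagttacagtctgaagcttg
H2-DMb1 promoter, chr17:34152941-34153240, strand +: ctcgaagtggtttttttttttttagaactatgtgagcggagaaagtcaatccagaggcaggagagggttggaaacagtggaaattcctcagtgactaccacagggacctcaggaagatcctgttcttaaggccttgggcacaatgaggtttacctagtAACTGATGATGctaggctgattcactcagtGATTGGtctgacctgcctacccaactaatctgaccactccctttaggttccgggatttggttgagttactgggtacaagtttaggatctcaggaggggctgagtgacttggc
In each of the 3 windows shown, GATTGG followed either the X box pattern or the cAMP response element, with 17 bases between them for H2-Aa, 18 for H2-Eb1 and 19 for H2-DMb1. H2-Eb1 held a further Y box core on the opposite strand. Of all 32851 promoter windows, 16.1% held the Y box core, 2.88% the X box pattern, 1.79% the cAMP response element and 0.740% the Y box core together with either of the others. Such matches describe the letters only.

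The deposited values are reads on genes scaled to 20000000 per library and rounded up, given below as CP20M. Recovered read totals were 532702 to 2237474 for the 6 sorted libraries, where 1 read was worth 8.94 to 37.5 CP20M, and 6175300 to 10995288 for the 12 crypt libraries, where it was worth 1.82 to 3.24 CP20M. The epithelial gene Epcam was abundant everywhere (8035 to 28011 CP20M). The enteroendocrine granin Chga reached 107136 to 304540 CP20M in GFP+ pools and only 3380 to 3504 CP20M in the Epcam+/GFP- samples, close to the 1727 to 3896 CP20M of crypts, although these samples carry the label enteroendocrine as well. Olfr78 transcripts were at 88 and 111 CP20M in WT crypts, 7 to 42 CP20M in KO crypts, 4822 and 4401 CP20M in HE pools and 977 and 837 CP20M in KO pools. In the other line they stood at 105, 61 and 124 CP20M in eControl mice 1 to 3, and at 21 CP20M in eKO mouse 1. The library titled eKO 2 had 73 CP20M, within the eControl range, and its genotype label (WT/HO) is that of eControl mouse 2, while eControl mice 1 and 3 are labelled HE/WT and eKO mouse 1 HE/HO. If such labels name Vil1-Cre first and the floxed allele second, WT/HO stands for floxed alleles without Cre. The title of this library was followed, and fitted values that rest on it are also given without it where that fit gave one.

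Summed over the 34 members, these transcripts took a minute part of every library. They made up 0.00949% and 0.00995% of reads on genes in the WT crypts, and 0.00526% to 0.00835% in the 5 KO crypts, so that every KO library lay below both WT libraries. eControl crypts had 0.0153%, 0.0108% and 0.00703% in mice 1 to 3, and the eKO libraries 0.00749% and 0.00887%, inside the eControl range. The Epcam+/GFP- samples had 0.00277% and 0.00298%, below all 12 crypt libraries, the HE pools 0.00299% and 0.00233%, and the KO pools 0.00131% and 0.00145%. The last 2 values rest on 7 and 25 reads (exact 95% binomial intervals 0.000528% to 0.00271% and 0.000940% to 0.00214%), whereas crypt values rest on 403 to 1177 reads. Such intervals cover counting error only, since reads are not independent molecules. Lists of further leukocyte genes did not all share this pattern, and KO and WT crypt values overlapped in each. The KO mean was 0.698 of the WT crypt mean for the members. It was 1.04 for other myeloid genes and 0.937 for other T, NK and innate lymphoid genes. For other pan-leukocyte genes it was 0.925, and for other B and plasma cell genes 0.687. WT crypts over Epcam+/GFP- samples came to 3.37 for the members and, in the same order, to 1.02, 1.24, 1.49 and 16.6. Fewer cells of a type and less RNA per cell cannot be told apart in bulk libraries of this kind.

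**Figure D1:**
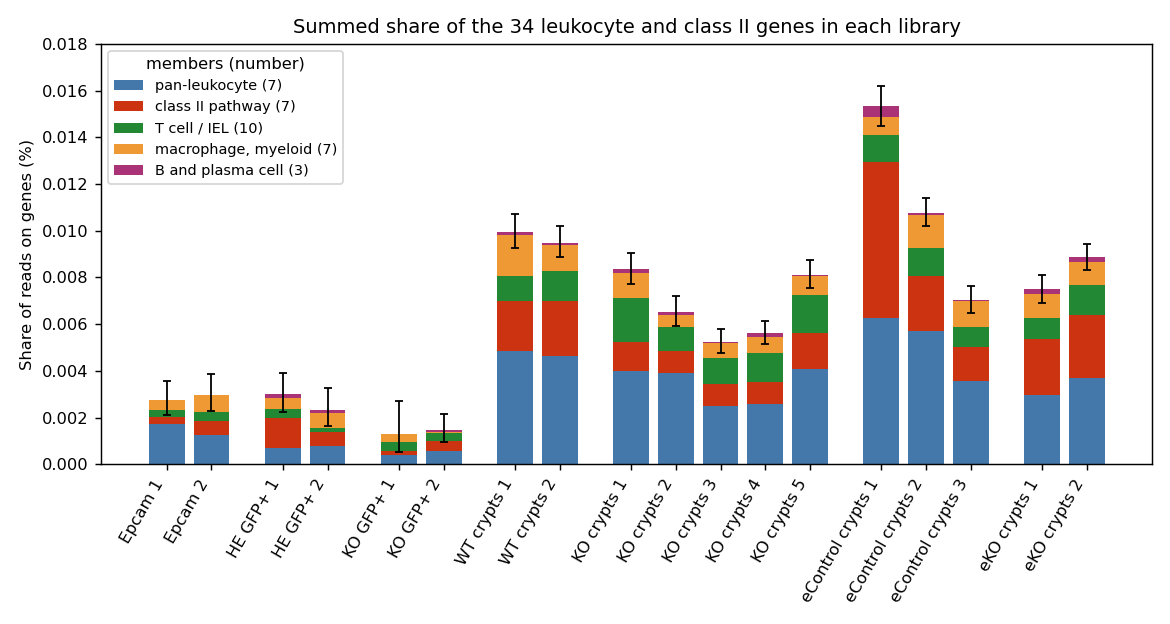
Summed share of the 34 members in each library (y axis, percent of reads on genes), stacked by role, with the exact 95% binomial interval of the sum as whiskers. Sorted libraries sit between 0.00131% and 0.00299%, crypts between 0.00526% and 0.0153%. The highest library is eControl mouse 1, which also has the largest class II part.

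The make-up of this share also differed between libraries. Pan-leukocyte members gave 48.8% of the sum in WT crypts and 50.3% in KO crypts. Class II members gave 23.0% in WT crypts, 16.5% in KO crypts, 31.6% in eControl and 31.2% in eKO crypts. T cell and intraepithelial lymphocyte members gave 12.2% in WT and 20.2% in KO crypts, macrophage and myeloid members 14.7% and 11.3%, and B and plasma cell members 1.19% and 1.61%. The highest single sum was that of class II members in eControl mouse 1, at 1340 CP20M against 469 and 289 CP20M in eControl mice 2 and 3. B and plasma cell members were at 93 CP20M in that mouse and at 18 and 8 CP20M in the others.

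Which of these transcripts remained after sorting on Epcam? Of the 34 members, 12 had no read in any of the 6 sorted libraries: the pan-leukocyte genes Laptm5 and Cd53, the class II chains H2-Aa and H2-Eb1, the T cell genes Cd3e, Cd3g, Cd8b1, Gzma and Gzmb (CD3 chains transmit the T cell receptor signal, granzymes are the proteases of cytotoxic granules), the complement genes C1qb and C1qc and the B cell receptor chain Cd79b. In crypts, 33 of the 34 were detected in both WT libraries and 27 in all 12 libraries. A count of 0 in both Epcam+/GFP- samples allows up to 14.3 CP20M over the pair (3 reads), and the same floor is 18.5 CP20M for HE pools and 26.6 CP20M for KO pools. Against it H2-Aa, at 83 and 111 CP20M in WT crypts, was at least 6.76-fold lower in the Epcam+/GFP- samples, Laptm5 at least 4.29-fold, Cd53 at least 3.03-fold, Cd3e at least 3.00-fold, H2-Eb1 at least 2.89-fold and Cd3g at least 2.34-fold. For Gzma, Gzmb, Cd8b1, C1qb, C1qc and Cd79b, WT crypts averaged at most 11.5 CP20M, under that floor, so that a difference was not detectable at this depth.

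Ptprc, which encodes the leukocyte surface phosphatase CD45, was at 413 and 374 CP20M in WT crypts and at 54 and 31 CP20M in the Epcam+/GFP- samples. Cd74 went from 227 and 195 CP20M to 27 and 31 CP20M. The groups did not overlap for either gene. The log2 fold change was -2.98 ± 0.33 (SE) for Ptprc (limma, adjusted p = 0.00120) and -2.50 ± 0.35 for Cd74 (adjusted p = 0.00276), short of the rule used for sorted cells (adjusted p below 0.001 and a log2 fold change beyond 2). Fold changes were taken on log2(CP20M + 10), which understates those of low genes. Cd3e, the CD3 ε chain, gave an adjusted p of 0.0172 (limma), with both Epcam+/GFP- samples at 0. Ptprc, Cd74 and Cd3e each passed the filter on low values through the crypt libraries alone. They therefore had to be lower after sorting to some degree.

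Other members were far less depleted. Lcp1, the actin-bundling protein L-plastin, was at 170 and 124 CP20M after sorting against 232 and 274 CP20M in crypts. Rac2 was at 45 and 72 against 78 and 68 CP20M, which overlapped. Csf1r, the receptor of the macrophage growth factor Csf1, was at 36 and 93 against 126 and 96 CP20M. Itgae was at 36 and 31 against 40 and 59 CP20M (log2 fold change -0.44 ± 0.44, limma, adjusted p = 0.509), and H2-Ab1 at 0 and 42 against 48 and 59 CP20M (-1.47 ± 0.75, adjusted p = 0.190). C1qa remained at 45 and 31 against 56 and 48 CP20M (-0.38 ± 0.43, adjusted p = 0.555), while C1qb and C1qc, which encode the partner chains of the same complex, had no read. As a share of the WT crypt mean, the Epcam+/GFP- mean was 10.8% for Ptprc, 13.7% for Cd74, 39.3% for H2-Ab1, 58.1% for Lcp1 and for Csf1r, 73.1% for C1qa and 80.1% for Rac2. These percentages rest on 4 to 31 reads per gene in the sorted pair.

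Reads of several members cannot be separated from those of a neighbour. On the GENCODE M21 annotation, exons of 9 of the 34 members overlap those of another gene. Csf1r shares 873 exonic bases with Hmgxb3 on the opposite strand (588 CP20M on average in the Epcam+/GFP- samples). H2-DMa shares 360 bases with the bromodomain gene Brd2 (3509 CP20M), Ciita 329 bases with Dexi (77.5 CP20M) and Cd52 172 bases with Crybg2 (593 CP20M). Ccr9 shares 269 bases with Gm17200 on its own strand (153 CP20M) and 1932 bases with another gene on the opposite strand (72.0 CP20M). Overlaps were also found for Lcp1 (311 bases with Gm15628 and 219 with Gm15629), Cd3e (135 with Gm48719), Coro1a (26 with Bola2) and Cd74 (12 with Mir5107). The strand setting of the counting is not given in the sources used here, and without it the reads of both genes cannot be told apart. Ptprc, Rac2, Itgae, C1qa and H2-Ab1 have no such overlap. Lyz2 and H2-DMb1 have close paralogues (Lyz1 and H2-DMb2) with which reads can be shared, so that their values are uncertain.

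Across all genes, 116 of the 15434 tested were called between Epcam+/GFP- samples and WT crypts, or 0.752%, and 0.194% were called lower. Of the members, 15 passed the filter on low values and none was called by limma, although 8 had an unadjusted p below 0.05, all lower (29.5% of all genes). edgeR and DESeq2 on the recovered reads each called 1, Ptprc (edgeR, 2.13% of all genes). The values of 14 of the 15 did not overlap and were lower after sorting, as were those of 48.0% of all genes tested. Of the 15, 13 had passed through the crypt libraries alone, Ptprc among them, and so had to be lower to some degree. Nothing is read from that count. The stromal gene Dcn fell as well, to 27 and 11 CP20M after sorting against 1175 and 492 CP20M in crypts (log2 fold change -4.79 ± 0.47, limma, adjusted p = 6.5e-04), whereas Col1a1 was at 188 and 155 CP20M against 307 and 86 CP20M. The sorted samples came from 1 mouse, so that p-values measure only the spread between samples, and were made with another RNA kit and a lower depth, which cannot be told apart from the effect of sorting.

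In GFP+ pools, the class II β chain H2-Ab1 was higher in HE pools than in Epcam+/GFP- samples. HE pools held 173 and 81 CP20M of it, above the 0 and 42 CP20M of the Epcam+/GFP- samples and above the 48 and 59 CP20M of WT crypts, and 0 and 47 CP20M in the KO pools. Its α partner H2-Aa had no read in any sorted library, and Cd74 was at 47 and 14 CP20M in HE pools and at 38 and 0 CP20M in KO pools. The log2 fold change of H2-Ab1 between HE pools and Epcam+/GFP- samples was 2.50 ± 0.88 (limma, adjusted p = 0.0735; edgeR adjusted p = 0.0605), and it was not called. H2-Ab1 passed the filter on low values through the HE pools alone, so that it had to be higher there to some degree. The log2 fold change ranged from 1.31 to 3.69 when each library was left out in turn. Only 4 members passed the filter in this comparison and 5 in that of KO pools with the same Epcam+/GFP- samples. None was called in either, against 1.75% and 0% of all genes. At an unadjusted p below 0.05, limma gave 1 member (H2-Ab1) in the first and none in the second comparison (37.2% and 18.5% of all genes), edgeR called none, and DESeq2 gave no adjusted p for 3 of the 4 and for all 5.

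Between KO and HE pools, no member exceeded 40 CP20M in all 4 pools, so that none could be tested (0% of 11892 genes were called). Examples of the values are those of Lcp1, at 38 and 47 CP20M in KO pools and 70 and 67 CP20M in HE pools, Csf1r, at 76 and 12 against 58 and 107 CP20M, and Itgae, at 0 and 24 against 35 and 27 CP20M. Lcp1 and Itgae were lower in both KO pools than in either HE pool, and Csf1r overlapped. Itgae rested on 2 reads in the KO pools. Rac2, H2-Ab1, C1qa and Cd79a were likewise lower without overlap. Cd52 (24 to 38 CP20M in KO against 24 to 27 CP20M in HE pools) and Ccr9 (24 to 76 against 0 to 35 CP20M) overlapped. Of all genes tested, 26.1% were lower without overlap. KO pool 1 was the shallowest library, in which a single read counts 37.5 CP20M. Cd79a, a B cell receptor chain, was found at 24 and 27 CP20M in HE pools, without a read in the other 4 sorted libraries.

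**Figure D2:**
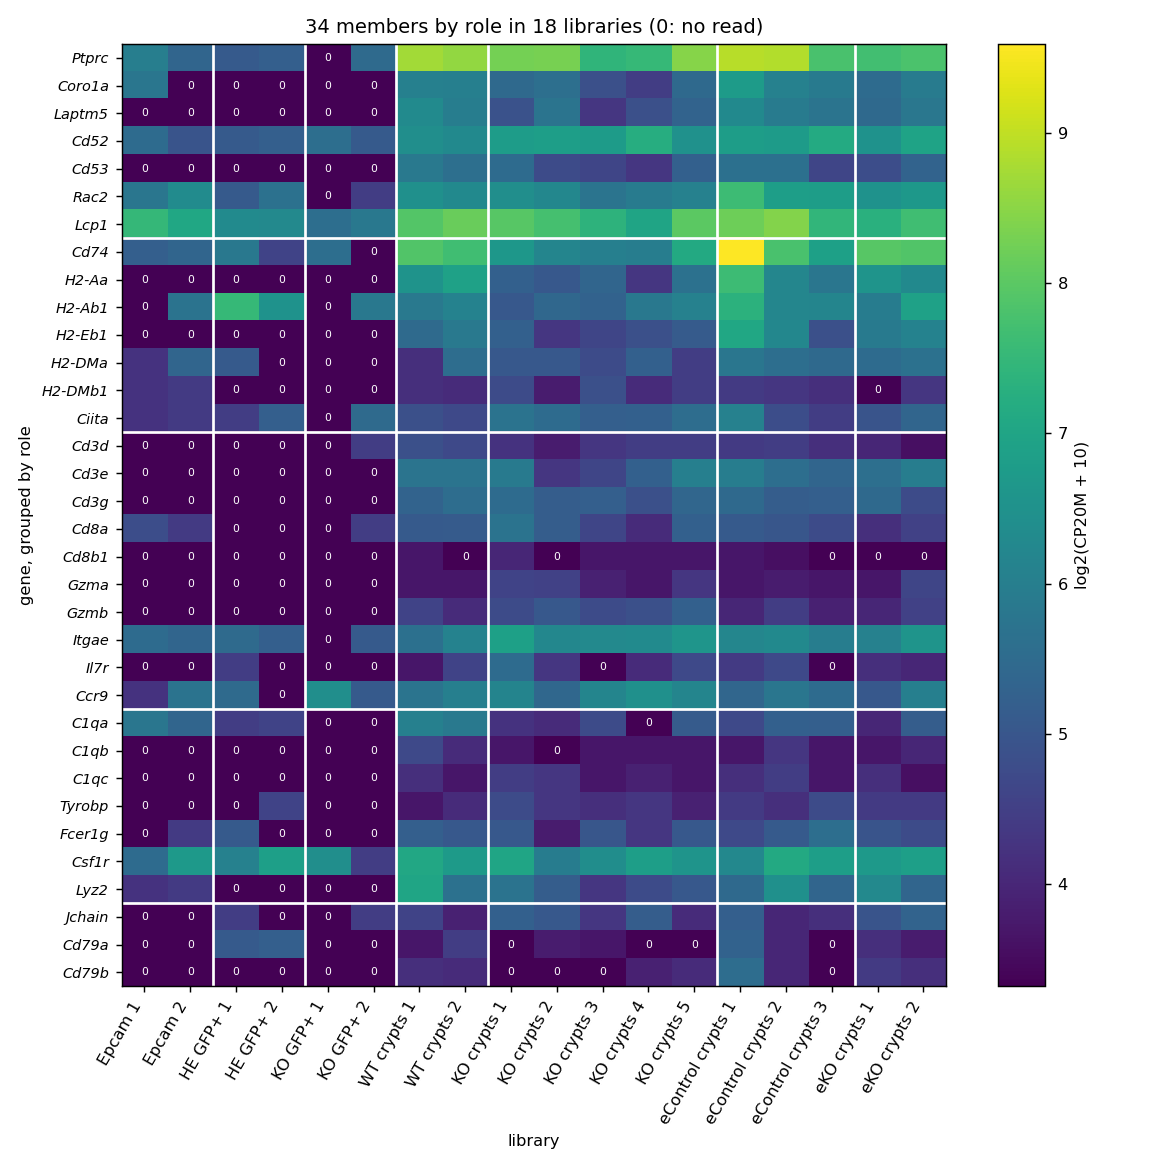
Abundance of the 34 members, as log2(CP20M + 10), in the 18 libraries. Rows are grouped by role and columns by group, and 0 marks a library without a read. In sorted libraries 12 members are at 0 throughout, and eControl mouse 1 is highest for Cd74, at 761 CP20M.

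To compare levels between genes, values were divided by exon length (CP20M per kb). In WT crypts Cd74 had the highest level, with 126 per kb. Lyz2, a lysozyme of myeloid cells, followed with 60.4, Cd52, a small surface glycoprotein of lymphocytes, with 60.2 per kb, and C1qa came next. Ptprc, the member with the most reads, came to 21.5 per kb, and Cd3e to 10.5 per kb. In KO crypts the order was led by Cd52 (88.1 per kb), Cd74 (46.3), Lcp1 (20.3) and Fcer1g (18.8), the common γ chain of Fc receptors, in eControl crypts by Cd74 (215) and Cd52 (93.5), and in eKO crypts by Cd74 (139) and Cd52 (83.0).

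The next comparison asked whether constitutive loss of Olfr78 altered these transcripts in crypts. In KO crypts 7 members fell relative to WT crypts: Cd74 and H2-Aa of the class II pathway, Ptprc, Laptm5 and Coro1a of the pan-leukocyte group, and C1qa and Lyz2 of the myeloid group. Genes were called here when the adjusted p did not exceed 0.2 and the change was larger than 1.5-fold. By this rule 1514 of 15975 genes were called (9.48%), 244 of them lower, or 1.53%. Called or not, 13.1% of all genes tested were lower in every KO mouse than in both WT mice, and 18.2% were higher. edgeR (2.08% of all genes lower) and DESeq2 called the same 7 members, and no member was called higher. All of these tests used the same filter on low values, which Coro1a, Laptm5, H2-Aa, C1qa and Lyz2 passed through the WT libraries alone. The members were chosen with earlier results of these data known, so that nothing is read from their share of calls.

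Cd74 was at 227 and 195 CP20M in the WT mice and at 89, 62, 55, 53 and 130 CP20M in KO mice 1 to 5. All KO values lay below both WT values, and the log2 fold change was -1.40 ± 0.29 (SE; limma, adjusted p = 0.0174). H2-Aa was at 83 and 111 CP20M in WT and at 28, 23, 31, 10 and 41 CP20M in KO crypts, again without overlap (-1.60 ± 0.34, adjusted p = 0.0188). These genes encode the invariant chain and the α chain that it escorts. For the β chains the groups were closer. H2-Ab1 was at 48 and 59 CP20M in WT and at 23, 33, 29, 47 and 57 CP20M in KO mice, which overlapped (-0.45 ± 0.31, adjusted p = 0.380). H2-Eb1, at 35 and 48 CP20M in WT and 10 to 28 CP20M in KO mice, did not reach the filter. Ciita had 19 and 16 CP20M in WT and 27 to 42 CP20M in KO mice, all KO values above WT, and was too low to be tested. H2-DMa (8 and 37 against 12 to 28 CP20M) and H2-DMb1 (8 and 7 against 4 to 19 CP20M) overlapped.

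Ptprc was at 413 and 374 CP20M in WT mice and at 301, 308, 162, 173 and 340 CP20M in KO mice, without overlap (-0.66 ± 0.26, limma, adjusted p = 0.140). Laptm5, a lysosomal membrane protein of haematopoietic cells, had 70 and 53 CP20M in WT and 20, 43, 10, 19 and 30 CP20M in KO mice (-1.12 ± 0.36, adjusted p = 0.0789). For Coro1a, a leukocyte actin regulator, 56 and 55 CP20M stood against 34, 39, 19, 12 and 34 CP20M (-0.86 ± 0.34, adjusted p = 0.138). The KO values of both genes were below those of both WT mice. The pan-leukocyte group was not uniform, however. Cd52 had 75 and 68 CP20M in WT and 80 to 141 CP20M in KO mice, all higher, and was not called (0.47 ± 0.22, adjusted p = 0.197). Rac2 (43 to 75 against 78 and 68 CP20M) and Lcp1 (116 to 247 against 232 and 274 CP20M) overlapped, and Cd53, at 48 and 39 CP20M in WT and 10 to 36 CP20M in KO mice, was not tested.

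Among myeloid genes, C1qa was at 56 and 48 CP20M in WT crypts and at 9, 7, 17, 0 and 25 CP20M in KO crypts (-1.64 ± 0.45, limma, adjusted p = 0.0445). The groups did not overlap. Lyz2 had 118 and 41 CP20M in WT and 42, 26, 10, 17 and 23 CP20M in KO crypts (-1.34 ± 0.42, adjusted p = 0.0701), where the second WT mouse lay within the KO values. Csf1r, at 126 and 96 against 52 to 119 CP20M, overlapped. C1qb was at 16 and 7 CP20M in WT and at most 3 CP20M in KO crypts, and C1qc at 8 and 3 against 3 to 12 CP20M. Tyrobp, a signalling adaptor of myeloid and NK cells, was at 3 and 7 CP20M in WT and 5 to 17 CP20M in KO crypts, and Fcer1g at 27 and 23 against 4 to 23 CP20M. All 4 were below the filter.

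No T cell member was called in KO crypts. Itgae had 40 and 59 CP20M in WT and 108, 65, 67, 70 and 87 CP20M in KO mice, all above WT, with a log2 fold change of 0.58 ± 0.25 (limma, adjusted p = 0.165) that was just under the required size. It was called higher with a pseudocount of 1 and without KO mouse 2, 3 or 4. Cd3e was at 43 CP20M in both WT mice and at 50, 10, 15, 28 and 55 CP20M in KO mice (-0.50 ± 0.44, adjusted p = 0.503). Ccr9, the gut-homing chemokine receptor, overlapped, with 43 and 55 against 33 to 79 CP20M. Cd3g (30 and 37 against 19 to 36 CP20M) and Cd8a (24 and 25 against 7 to 42 CP20M) were also within or around the WT values, while Cd3d had 19 and 16 CP20M in WT and 4 to 12 CP20M in KO mice. The granzyme genes were low. Gzma was at 3 CP20M in both WT mice and 3 to 14 CP20M in KO mice, and Gzmb at 14 and 7 against 17 to 28 CP20M. Cd8b1 stayed at or below 6 CP20M in all crypts, and Il7r ranged from 0 to 36 CP20M. Jchain, which joins the subunits of secreted IgA, was at 14 and 5 CP20M in WT and 7 to 28 CP20M in KO mice, Cd79a at 3 and 12 against 0 to 4 CP20M and Cd79b at 8 and 7 against 0 to 7 CP20M.

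**Figure D3:**
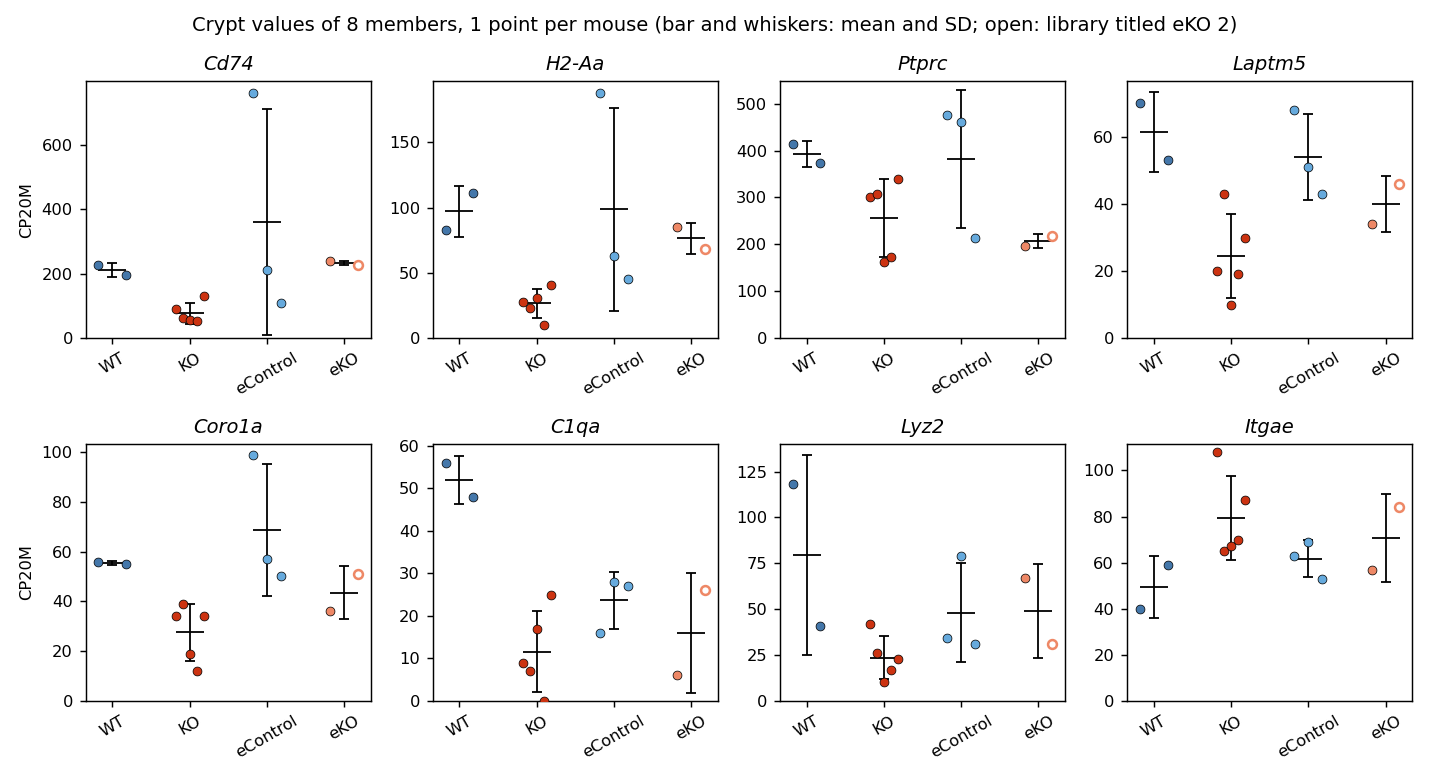
Values (CP20M) of the 7 members called lower in KO crypts and of Itgae, with 1 point per mouse and the mean and SD of each group. KO points lie below both WT points for every called gene except Lyz2, as they do for 13.1% of all genes tested. The eKO points lie within or near the spread of eControl mice. The open symbol is the library titled eKO 2.

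These calls rest on 2 WT mice and on low values. The members Coro1a, Laptm5, H2-Aa, C1qa and Lyz2 passed the filter through the WT libraries alone and so had to be lower in KO crypts to some degree, which leaves Cd74 and Ptprc as the called genes among the 10 that passed in either group alone. With no filter, where all 34 members were tested, 5 were called lower (Cd74, H2-Aa, C1qa, Laptm5 and Lyz2) against 0.427% of all genes. That share is over 44270 genes, of which only 15975 passed the filter. The members were chosen with earlier results known, so that nothing is read from this count either. Leaving out WT mouse 1 kept Cd74 and H2-Aa among the calls, and leaving out WT mouse 2 kept Cd74 and Lyz2. The call of Ptprc was also lost without KO mouse 3 or KO mouse 4, and that of Coro1a without KO mouse 3. Markers of other cells differed between the mice too. Collagen and other stromal and endothelial genes, 12 in all, summed to 0.0145% and 0.00619% of reads in WT mice 1 and 2 and to 0.00419% to 0.00939% in KO mice. Of the 8 tested, limma called none and edgeR called 3 lower. Col1a1 was at 307 and 86 CP20M in WT mice and at 74 to 140 CP20M in KO mice, and Epcam at 21221 and 21676 CP20M against 18405 to 18979 CP20M. The stromal sum of WT mouse 2 lay within the KO range. In that mouse Cd74 was at 195, H2-Aa at 111, Ptprc at 374 and Laptm5 at 53 CP20M. Coro1a was at 55 and C1qa at 48 CP20M there, and Lyz2, at 41 CP20M, lay within the KO values. The part of stromal cells in the result was not tested.

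Genes outside the 34 members were examined by list. Of 23 other genes of the class II route, among them the proteases Ctss and Lgmn and the promoter-binding factors Rfx5 and Nfya to Nfyc, 14 were tested and none was called (limma, 2 with an unadjusted p below 0.05, both lower, against 9.58% of all genes; edgeR also none). None of 11 tested class I genes, which present peptides of the cell itself, was called by limma or edgeR, with 3 at an unadjusted p below 0.05, all lower. In the interferon gamma axis 2 of 7 were called, in opposite directions. Irf1, a transcription factor induced by interferon, rose from 1058 and 1078 CP20M to 1186 to 2352 CP20M in KO crypts (0.64 ± 0.19, adjusted p = 0.0602), and Socs1, an inhibitor of the same pathway, fell from 40 and 50 CP20M to 14 to 31 CP20M (-0.65 ± 0.30, adjusted p = 0.198). Among further leukocyte genes limma called Cytip, Ighm and Cd7 lower and Ms4a7 higher (1.53% of all genes lower and 7.95% higher). Cytip, a lymphocyte adhesion regulator, fell from 259 and 256 CP20M to 90 to 152 CP20M (-1.13 ± 0.21, adjusted p = 0.0118). The immunoglobulin heavy chain Ighm fell from 83 and 43 CP20M to 5 to 36 CP20M (-1.35 ± 0.44, adjusted p = 0.0809), and Cd7, a T and NK cell antigen, from 54 and 57 CP20M to 20 to 39 CP20M (-0.66 ± 0.28, adjusted p = 0.158). Ms4a7, a macrophage gene, rose from 27 and 19 CP20M to 23 to 56 CP20M (0.70 ± 0.32, adjusted p = 0.192), with overlap, while edgeR called 1 entry of that list higher and 2 lower. These were the calls among 6 T, NK and innate lymphoid, 3 B and plasma cell, 7 myeloid and 4 pan-leukocyte entries tested, of which the myeloid ones count Itgam under 2 identifiers. Socs1, Ighm and Cd7 passed the filter on low values through the WT libraries alone and so had to be lower in KO crypts to some degree. Ms4a7 passed through the KO libraries alone and so had to be higher there.

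In the line with epithelial loss of Olfr78, no member was called between eKO and eControl crypts. Of the 17 that passed the filter, none had an unadjusted p below 0.05 in limma and 1 had in edgeR. edgeR called no member either, DESeq2 gave no adjusted p for any of the 17, and of all 15401 genes limma and edgeR called 0%, with 127 (0.825%) at an unadjusted p below 0.05 in limma. Without the library titled eKO 2, limma again called no member, while 6 genes were called in all and 941 had an unadjusted p below 0.05. The median log2 fold change was -0.14 over these members and 0.03 over all genes. Cd74 was at 761, 212 and 109 CP20M in eControl mice 1 to 3 and at 238 and 228 CP20M in the libraries titled eKO 1 and 2, which lay within the eControl range (-0.17 ± 0.67, limma, adjusted p = 1.000). Its log2 fold change was 0.58 without eControl mouse 1 and -0.14 without the library titled eKO 2. H2-Aa (188, 63 and 45 against 85 and 68 CP20M) and H2-Eb1 (123, 65 and 19 against 49 and 59 CP20M) showed the same picture, with eControl mouse 1 highest and both eKO libraries within the eControl range. The log2 fold change of H2-Aa was -0.11 with the library titled eKO 2 and 0.04 without it, and that of H2-Eb1 -0.05 and -0.16. H2-Ab1 had 154, 63 and 62 CP20M in eControl and 52 and 110 CP20M in eKO crypts (-0.14 ± 0.47, limma, adjusted p = 1.000; -0.62 without the library titled eKO 2).

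Ptprc was at 475, 460 and 213 CP20M in eControl mice and at 197 and 217 CP20M in the eKO libraries (-0.77 ± 0.34, limma, unadjusted p = 0.0573, adjusted p = 1.000). eControl mouse 3 lay between the eKO libraries. Without the library titled eKO 2 it was -0.84 (adjusted p = 0.678). Of the members tested, Rac2 was the 1 whose groups did not overlap, with 185, 104 and 102 CP20M against 82 and 91 CP20M (-0.49, and -0.56 without the library titled eKO 2), and 2.79% of all genes were likewise lower without overlap. Among members too low to be tested, Cd3d (11, 12 and 8 against 6 and 2 CP20M) and Cd8a (24, 22 and 17 against 8 and 13 CP20M) did not overlap either. Itgae (63, 69 and 53 against 57 and 84 CP20M; 0.15 ± 0.31, adjusted p = 1.000; -0.09 without the library titled eKO 2) and Cd3e (53, 38 and 31 against 39 and 53 CP20M; 0.16 ± 0.37, adjusted p = 1.000) overlapped. C1qa, at 16, 28 and 27 CP20M in eControl and 6 and 26 CP20M in eKO crypts, was not tested. Of the plasma cell genes outside the 34, the IgA heavy chain Igha was at 123 and 150 CP20M in eKO against 97, 28 and 15 CP20M in eControl mice, and the light chain Igkc at 156 and 131 against 152, 53 and 19 CP20M, and neither was called.

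**Figure D4:**
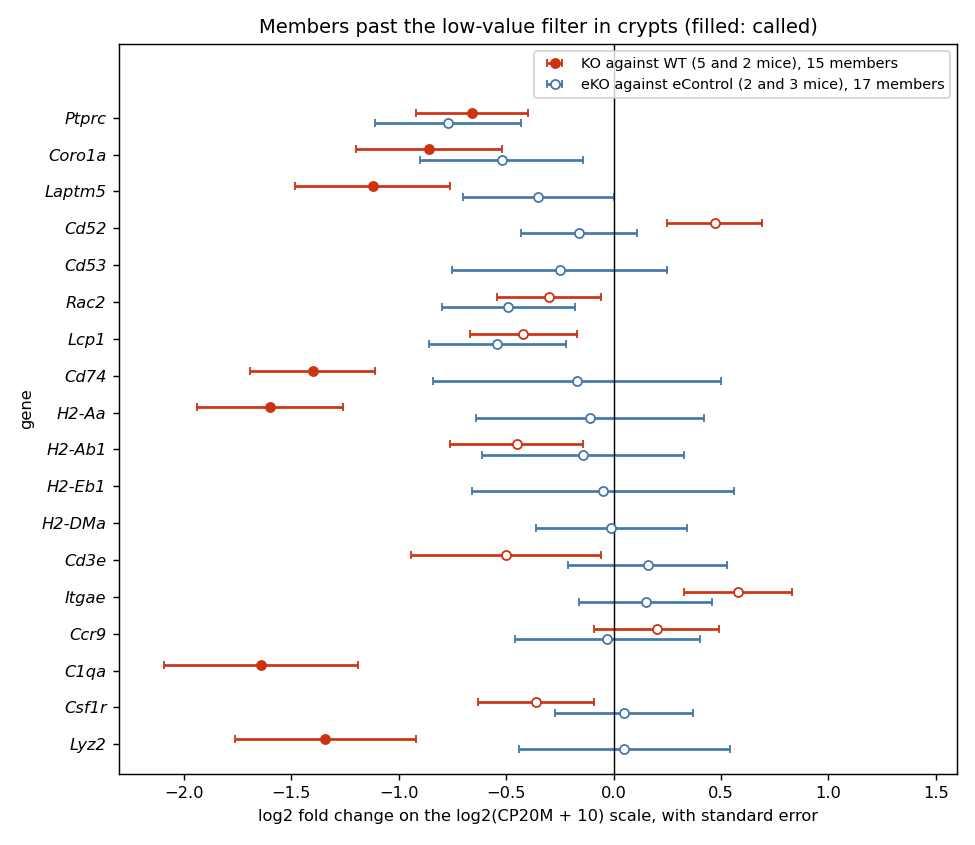
Log2 fold change with its SE for the members past the filter, in KO against WT crypts (15 members) and in eKO against eControl crypts (17 members), 2 comparisons without shared samples. Filled symbols are calls, which occur only in the constitutive line. Ptprc lies at -0.66 and -0.77, and Cd74 at -1.40 and -0.17.

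When crypts of both lines were fitted together with the line as a covariate, 19 members were tested and none was called by limma, edgeR or DESeq2, which gave no adjusted p for 4 of them. Of all genes, 4 of 16447 were called, or 0.0243%. At an unadjusted p below 0.05, 6 members were lower and none higher (2.71% of all genes lower). Of these, C1qa and Coro1a passed the filter on low values through control crypts alone and so had to be lower to some degree. The members were chosen with earlier results of these data known, so that nothing is read from this count. Ptprc gave -0.71 ± 0.23 (limma, adjusted p = 0.597), C1qa -1.11 ± 0.36 (adjusted p = 0.601) and Cd74 -0.84 ± 0.40 (adjusted p = 0.638). Without eKO mouse 1, 7 members were called, the same as in the constitutive line, along with 1134 genes in all, and without the library titled eKO 2 no member was. In the latter fit the log2 fold change was -0.72 for Ptprc, -1.44 for C1qa and -0.96 for Cd74. Whether the effect of genotype differed between lines was tested as an interaction, which called no member and 0.0304% of all genes. H2-Aa alone had an unadjusted p below 0.05 (8.77% of all genes), at 0.0374 (1.49 ± 0.65, adjusted p = 0.557), and Cd74 differed by 1.23 ± 0.76 (adjusted p = 0.607; 1.26 without the library titled eKO 2). No member was called in this test by edgeR or DESeq2. Leaving out eControl mouse 1 called Cd74 and H2-Aa (616 genes in all), and leaving out the library titled eKO 2 called Cd52, H2-Aa and Lyz2 (4296 genes in all). A difference between the lines was hence not shown for any member with all libraries in the fit.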

How the data were processed

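RNA was measured by paired-end RNA-seq in 18 libraries. According to the study methods and the submitters' processing notes, the authors aligned reads with STAR to GRCm38, counted them with HTSeq on Ensembl 90, and deposited gene-level reads that had been brought to 20000000 in each library and rounded upwards. The deposited values of the sorted libraries were treated as a signal (whole reads recovered) and those of crypts as a score, since rounding leaves whole numbers. Reads were recovered by dividing by the value of 1 read, and 99.84% to 99.99% of values per library came out whole. WT, KO and sorted libraries are in one deposited table and the eControl and eKO libraries in another, so that levels were tested within tables or with the line as a covariate.

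The test was limma-trend (limma 3.58.1, R 4.3.3) on log2(value + 10) with Benjamini-Hochberg adjustment over all genes that reached 40 CP20M in at least 2 libraries (above 40 in all 4 for KO against HE pools). Calls required an adjusted p below 0.001 and a log2 fold change beyond 2 for sorted cells, below 0.05 for KO against HE pools, at most 0.2 with a change larger than 1.5-fold for crypts, and at most 0.2 for the interaction. edgeR 4.0.16 and DESeq2 1.42.0 on recovered reads, other pseudocounts (1 and 40), rescaling, filters and a replicate block were alternatives, and scripts were tested on simulated data. No label ties replicate numbers to a shared animal or batch, and they were not taken to pair the samples. The members and gene lists were chosen with earlier results of these data known. All 34 members are named by role, with fitted values for members called and for 10 fixed genes, and at most 4 called genes per other list and comparison.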

Additional observations from a re-analysis of the deposited data

Results flagged for a closer look

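Among 40 values examined in the 5 KO crypts, 1 stood apart by Dixon's test, where chance alone marks about 1 in 20 groups. C1qb was at 0 CP20M in KO mouse 2 and at 3 CP20M in each of the other 4 mice, a gap of about 1 read. No member was called for a difference between the lines in the interaction test.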

How the results depend on the processing

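In KO against WT crypts, 7 members were called, 1 with a filter at 200 CP20M, and 2 to 8 when each mouse was left out (2 without WT mouse 1 or WT mouse 2). Between Epcam+/GFP- samples and WT crypts, 0 were called, 1 with a pseudocount of 40, with edgeR, with DESeq2 or with a filter at 200 CP20M, 4 with the replicate block, and 0 to 1 with a sample left out (1 without WT mouse 2). The both-lines fit gave 0 to 7 and the interaction 0 to 3 with a mouse left out. With a library left out, log2 fold changes of fixed genes that reversed ranged from -1.12 (without Epcam sample 1) to 1.32 for H2-Ab1 in KO pools, from -0.77 to 0.58 (without eControl mouse 1) for Cd74 in eKO, from -0.62 to 0.33 for H2-Ab1 in eKO (0.25 without eControl mouse 1, 0.33 without eKO mouse 1), from -0.09 (without eKO 2) to 0.40 for Itgae in eKO, and, in the interaction, from -0.48 to 0.08 for Ptprc (0.06 without eControl mouse 2) and from -0.17 (without eKO 2) to 0.79 for H2-Ab1. Other members crossed 0 too, such as H2-Aa (-0.48 to 0.44) and H2-Eb1 (-0.65 to 0.45) in eKO and Csf1r in KO pools (-1.24 to 0.32). None of these was called in those comparisons with all libraries. Mean summed shares without mitochondrially encoded genes in the denominator were 0.00336% (Epcam+/GFP-), 0.00167% (KO pools) and 0.0108% (WT crypts). Without class II members they were 0.00243% (Epcam+/GFP-), 0.00173% (HE pools), 0.00109% (KO pools), 0.00748% (WT crypts) and 0.00563% (eKO). The cause of these shifts was not tested.

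Over all genes, KO against WT crypts gave 1514 calls, 854 with a pseudocount of 40 and 525 with the filter at 200. Epcam+/GFP- against WT crypts gave 116, 328 with edgeR, 322 with DESeq2, 420 with the block and 0 without trend or filter, and median-of-ratios rescaling moved the median of all genes from -0.26 to -0.02. HE pools against Epcam+/GFP- samples gave 287, 751 with edgeR, 720 with DESeq2, 77 and 522 with pseudocounts of 1 and 40, 523 with the block and 0 without trend. KO pools against the same samples gave 0, 31 with edgeR, 253 with DESeq2 and 194 with the block. Deviations of same-numbered samples correlated at 0.59 and 0.36 for eKO and eControl crypts, where only 2 pairs exist, and at -0.10 to 0.06 in other comparisons except KO against HE pools. There they correlated at -0.16, and the crossed pairing, added after seeing the data, gave 85 calls against 0 with the block, with no member tested. DESeq2 gave 8 calls for these pools, 9 in eKO against eControl crypts (0 with limma, 13 with the block), 42 in the both-lines fit (4 with limma, 27 with the block) and 66 in the interaction (5 with limma, 50 with the block). With the block 6 members were called in KO against WT crypts, 5 lower and Itgae higher, and none in eKO. Depth limits the sorted libraries, where most members rest on fewer than 10 reads.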
